A study of Mus musculus with 16 samples.

Results

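The extracellular matrix is the protein scaffold around cells, and 42 of its genes are described here in injured mouse kidney: those for collagens, glycoproteins, proteoglycans, basement membrane proteins and collagen crosslinking enzymes, and 4 markers of the stromal cells that make it. The members were chosen by symbol. All 42 were found among the 20525 genes of the deposited expression matrix, and each reached 10 normalized counts in 4 or more of the 16 libraries, as did 18035 genes in all. By role, 20 encode interstitial matrix, 15 basement membrane, 3 lysyl oxidases, and 4 mark stromal cells. RNA was sequenced from frozen kidney sections 30 µm thick. The mice were 8 weeks old, on a background that the labels spell C56BL/6, and were either WT or C3-/-, a genotype that targets complement component C3. They received 7.5 ml/kg of 50% glycerol in thigh muscle, which causes rhabdomyolysis and acute kidney injury, or PBS. Each genotype and treatment was sampled in 4 libraries. Sex and sampling time are missing from the labels, and nothing in them says that each library is a separate animal, so the p-values rest on a spread between samples that may be technical.

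Interstitial matrix lies between tubules and vessels. Its fibrillar collagens (types I, III and V) are secreted as procollagens, trimmed, assembled into fibrils and crosslinked by lysyl oxidases, while fibronectin, tenascin-C, periostin, SPARC and the small leucine-rich proteoglycans decorin, lumican and biglycan bind and organise them. Basement membrane is a thin sheet under epithelium and endothelium, built from networks of type IV collagen and laminin that nidogens and perlecan link together. In kidney the glomerular basement membrane uses a type IV collagen network of the chains encoded by Col4a3, Col4a4 and Col4a5, made by podocytes. Those of Col4a1 and Col4a2 occur in basement membranes throughout the organ. The former chains are called glomerular below after that network only. Kidney sections do not show which cells transcribed them, so their values are not read as values of podocytes or glomeruli. Fibroblasts and pericytes, marked by Pdgfra, Pdgfrb, Vim and, on activation, Acta2, are the main source of interstitial matrix in injured kidney.

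Members that share a locus are shown first because their values can be read against their positions (GENCODE M21, GRCm38). Col4a4 (chr1:82448423-82586849, minus strand) and Col4a3 (chr1:82586921-82722059, plus strand) lie head to head with 71 bases between their annotated starts, and Col4a1 and Col4a2 lie head to head on chromosome 8 with annotated starts that overlap by 22 bases. Col3a1 (chr1:45311538-45349706, plus strand) and Col5a2 (chr1:45374321-45503282, minus strand) lie tail to tail, 24614 bases apart. The stretch between Col4a4 and Col4a3, and the 250 bases before the RefSeq starts of 3 interstitial collagen genes whose responses are set beside it below, read as follows (RefSeq, GRCm38.p6, 5′ to 3′ on the strand of the gene, that of Col4a4 for the shared stretch). Capitals mark matches to 2 of the motifs searched, TATAAA (or TTTATA) and the GC box GGGCGG (or CCGCCC); the third was CCAAT (or ATTGG), and each was searched on both strands.
Between Col4a4 and Col4a3, chr1:82586850-82586920, minus strand: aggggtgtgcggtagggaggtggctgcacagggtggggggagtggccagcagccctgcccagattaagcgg
Col3a1, chr1:45311288-45311537, plus strand: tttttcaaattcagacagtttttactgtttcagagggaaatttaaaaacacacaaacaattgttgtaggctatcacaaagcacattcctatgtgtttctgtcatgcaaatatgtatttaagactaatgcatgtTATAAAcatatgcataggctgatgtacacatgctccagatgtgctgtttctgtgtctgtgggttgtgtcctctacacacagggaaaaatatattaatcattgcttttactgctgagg
Col5a1, chr2:27886175-27886424, plus strand: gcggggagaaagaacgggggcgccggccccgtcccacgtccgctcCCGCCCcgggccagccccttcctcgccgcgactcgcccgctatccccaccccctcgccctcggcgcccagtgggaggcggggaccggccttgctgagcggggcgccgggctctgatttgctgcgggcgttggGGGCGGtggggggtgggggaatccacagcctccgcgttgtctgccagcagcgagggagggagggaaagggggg
Col6a3, chr1:90843972-90844221, minus strand: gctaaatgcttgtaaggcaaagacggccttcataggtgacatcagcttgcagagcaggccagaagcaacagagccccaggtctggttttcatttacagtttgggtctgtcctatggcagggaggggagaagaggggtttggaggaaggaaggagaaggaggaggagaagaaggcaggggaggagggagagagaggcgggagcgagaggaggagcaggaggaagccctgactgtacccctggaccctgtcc

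None of the 3 motifs was found in the 71 bases between Col4a4 and Col4a3, where windows of that length before all 32851 RefSeq starts held CCAAT in 13.3%, the GC box in 20.7% and TATAAA in 4.41%. The Col3a1 window held 1 TATAAA, the Col5a1 window 2 GC boxes and the Col6a3 window none of the 3. In windows of 250 bases the background was 33.8% for CCAAT, 32.7% for the GC box and 12.4% for TATAAA. Promoter entries matched 26 members, with 30 starts, of which 9 held CCAAT, 16 the GC box and 5 TATAAA. The members on chromosome 18, Lox and Pdgfrb, were not searched, whereas the background kept all 32851 starts. No motif contains another as spelled, and a match is a description of letters only.

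Normalized counts summed to 25.81 M to 38.39 M per library, and the reads behind them are unknown. C3 itself had 335 to 470.5 normalized counts in WT PBS, 564 to 1140 in C3-/- PBS, 1712 to 4718 in WT glycerol and 1457 to 8008 in C3-/- glycerol, so C3 RNA gave no sign of the genotype, and the label alone carries the genotype in what follows. Y-linked transcripts were present in all 8 WT libraries but in only 3 of the 8 labelled C3-/- (PBS replicate 4, glycerol replicates 3 and 4). The other 5 had Xist at 16098 to 35409.9. Sample descriptions also carry a running number that restarts in 3 glycerol libraries (replicate 4 of WT, replicates 1 and 3 of C3-/-), while the other 13 form a first number series; what the restart stands for is not stated. These 3 libraries stood apart: a term for the number series was called (limma, adjusted p below 0.05) for 67.2% of all genes, and WT glycerol replicate 4 listed 3374 genes at 0 against 190 to 982 elsewhere. Values within the first number series, which leaves 3 WT and 2 C3-/- glycerol libraries, are therefore given for results that they change. Kidney markers were present throughout: Umod of the thick ascending limb at 19329 to 194526 and Nphs1 of podocytes at 594 to 1217. Slc34a1 of the proximal tubule was at 91669 to 115322 in WT PBS, 74517 to 136425 in C3-/- PBS and 5164 to 25293 in WT glycerol. In C3-/- glycerol it was at 19208, 22486, 158390 and 27846, so replicate 3 lay above the PBS range and the others below it.

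Per kilobase of merged exon, the only scale on which genes are compared with one another here, basement membrane genes were the most abundant members in WT PBS kidney. Col4a3 (1040.4 ± 43.6, SD, n = 4) and Col4a4 (898 ± 53.7) ranked first and second of the 42. Sparc (836 ± 101), Acta2 (830.5 ± 77.4) and Col4a1 (807 ± 79.0) followed with overlapping spreads. Fibrillar collagens were lower, with Col3a1 at 147 ± 52.4, Col1a2 at 124 ± 31.7, Col5a2 at 105 ± 12, Col1a1 at 90.3 ± 20.4 and Col5a1 at 27.9 ± 7.44 normalized counts per kilobase. The lowest was Vcan, the large proteoglycan versican, at 3.01 ± 1.26. In WT glycerol kidney the order of the same levels was led by Sparc (1955 ± 586), Col4a1 (1734 ± 93.9) and Col4a2 (1548 ± 548), and Col4a3 stood at 338 ± 229.

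**Figure D1:**
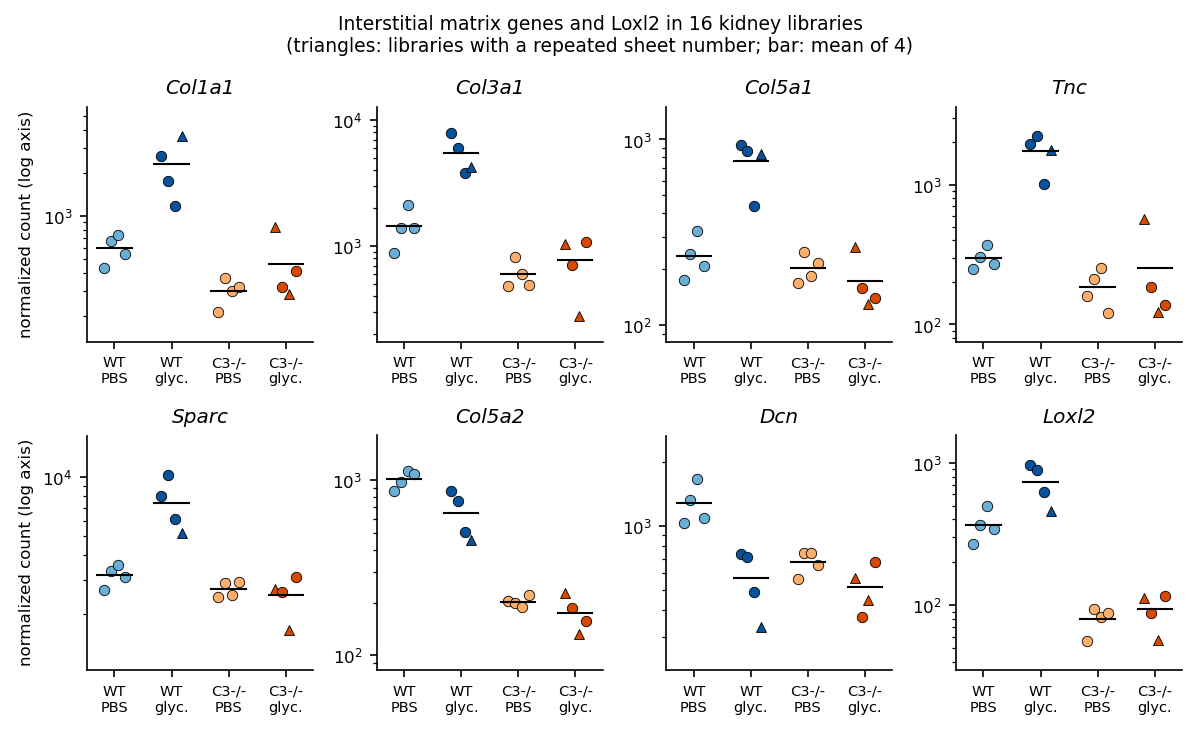
Normalized counts (vertical log axis) of 7 interstitial matrix genes and Loxl2 in each of the 16 libraries, by group; circles are libraries of the first number series, triangles the 3 with repeated numbers, and bars the means of 4. Col3a1 lay between 3788 and 7936 in WT glycerol, above every other library, while Col5a2 and Loxl2 were lower in all libraries labelled C3-/- than in all WT libraries.

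After glycerol, Col1a1, Col3a1, Col5a1 and most adhesive glycoprotein genes rose in WT kidney, and decorin, lumican and the collagen IV chains of the glomerular network fell. Laminins, nidogens and perlecan had no call with all libraries, but within the first number series Lamc1, Lama5 and Nid1 were called higher and Lama1 and Nid2 lower. Of the 42 members 16 rose and 6 fell (limma, Benjamini-Hochberg adjusted p below 0.05), or 38.1% and 14.3%, where 12.5% of all genes tested rose and 13.3% fell. The share that fell was thus close to that of all genes. Interstitial genes made up 10 of the rises and 3 of the falls, with a median log2 difference of 0.71, and basement membrane genes 4 and 3, with a median of 0.15, beside -0.11 over all genes tested. Since whole sections were sequenced, more cells of a type and more RNA per cell cannot be told apart here or below. Within the first number series 31 members were called in this comparison, 22 higher and 9 lower, where 55.6% of all genes were called in either direction, and all 22 members called with every library were among them.

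Col3a1, the collagen of fine reticular fibrils, had normalized counts of 878, 1389, 2128 and 1384 in WT PBS and 7936, 5948, 3788 and 4264 in WT glycerol. Every glycerol library lay above every PBS library, and the log2 difference was 1.93 ± 0.39 (SE, adjusted p = 0.0025). Col1a1, one of the chains of type I collagen, had 432, 662, 736 and 542 in PBS and 2617, 1753, 1179 and 3599.7 after glycerol, a rise of 1.85 ± 0.36 (adjusted p = 0.00188) with no overlap. Its partner chain Col1a2 had 1194, 1547, 2094 and 1346 and 3478, 2591, 1694 and 2088; these ranges overlapped and the difference of 0.65 ± 0.24 did not pass (adjusted p = 0.0581), whereas it was called within the first number series, at 0.72 (adjusted p = 0.0232).

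Type V collagen, which starts and limits the width of collagen fibrils, divided by chain. Col5a1 had 175, 243, 322 and 209 in PBS and 934, 871, 437 and 838 after glycerol and rose by 1.67 ± 0.29 (adjusted p = 7.35e-04). Col5a2 had 863, 979, 1121 and 1077 and 864, 762, 508 and 456 and fell by 0.68 ± 0.22 (adjusted p = 0.0308), with glycerol replicate 1 just inside the PBS range and a call that ended when any of 5 single libraries was left out (adjusted p up to 0.0852). Its neighbour Col3a1 rose in the same comparison, but not library by library against it: both genes were highest of the glycerol libraries in replicate 1.

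Among the beaded-filament and fibril-associated collagens, Col6a3, the long chain of type VI collagen, rose by 1.02 ± 0.27 (adjusted p = 0.0125), from 461 to 940.4 to 792 to 1481. The other type VI chains did not pass: the differences were 0.23 ± 0.42 for Col6a1 and 0.26 ± 0.36 for Col6a2, and both were highest in glycerol replicate 4, a library with a repeated number, without which they were -0.15 and -0.08 in the first series. Col12a1, which coats collagen fibrils, rose by 0.87 ± 0.23 (adjusted p = 0.012). Col14a1, of the same family, was at 614, 831, 1234 and 837 in PBS and 365, 248, 363 and 708 after glycerol. Its difference of -1.12 ± 0.41 missed the threshold (adjusted p = 0.0566) and was -1.41 (adjusted p = 1.02e-04) within the first number series, where replicate 4, its highest glycerol library, is absent.

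Tnc, which encodes tenascin-C, a glycoprotein deposited during wound repair, had the largest rise of the 42: 249.7, 302, 372 and 268 in WT PBS and 1952, 2239.8, 1007 and 1780.2 after glycerol, a difference of 2.50 ± 0.41 (adjusted p = 5.46e-04). Even the lowest glycerol library exceeded the highest PBS library. Sparc, whose product binds collagen and assists its assembly, rose by 1.19 ± 0.22 (adjusted p = 0.00133) from 2669.6 to 3576 to 5198 to 10222. Fn1 (fibronectin) rose by 0.79 ± 0.24 (adjusted p = 0.0262) and Fbn1 (fibrillin-1, of elastic microfibrils) by 0.77 ± 0.24 (adjusted p = 0.0299), but either call ended when any of 5 single libraries was left out. Vcan rose by 1.70 ± 0.60 (adjusted p = 0.0482); its glycerol values of 184, 268, 139.5 and 46.0 reached into the PBS range at replicate 4, and leaving out any of 12 libraries ended the call.

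The remaining interstitial genes varied between glycerol libraries or changed little. Postn, which encodes periostin, stood at 258, 279, 73.8 and 79.9 after glycerol, above the PBS range of 85.9 to 127 in replicates 1 and 2 and below it in the other two. Eln (elastin) stood at 262, 259, 194 and 1209, so that only replicate 4 exceeded the PBS range of 203 to 292, and the log2 difference within the first number series was -0.01. Bgn (biglycan) differed by 0.54 ± 0.33 (adjusted p = 0.247).

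Decorin and lumican, small proteoglycans that regulate fibril width and lie 46984 bases apart on chromosome 10, went down. Dcn had 1029.7, 1321, 1664 and 1089 in PBS and 734, 715, 489.9 and 334 after glycerol, with no overlap, and fell by 1.21 ± 0.26 (adjusted p = 0.00348). Lum, a gene of low counts, had 61.1, 76.4, 96.2 and 60.8 and 57.1, 44.6, 37.8 and 16.9 and fell by 0.99 ± 0.33 (adjusted p = 0.0368), a call that any of 6 single omissions ended (adjusted p up to 0.11).

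**Figure D2:**
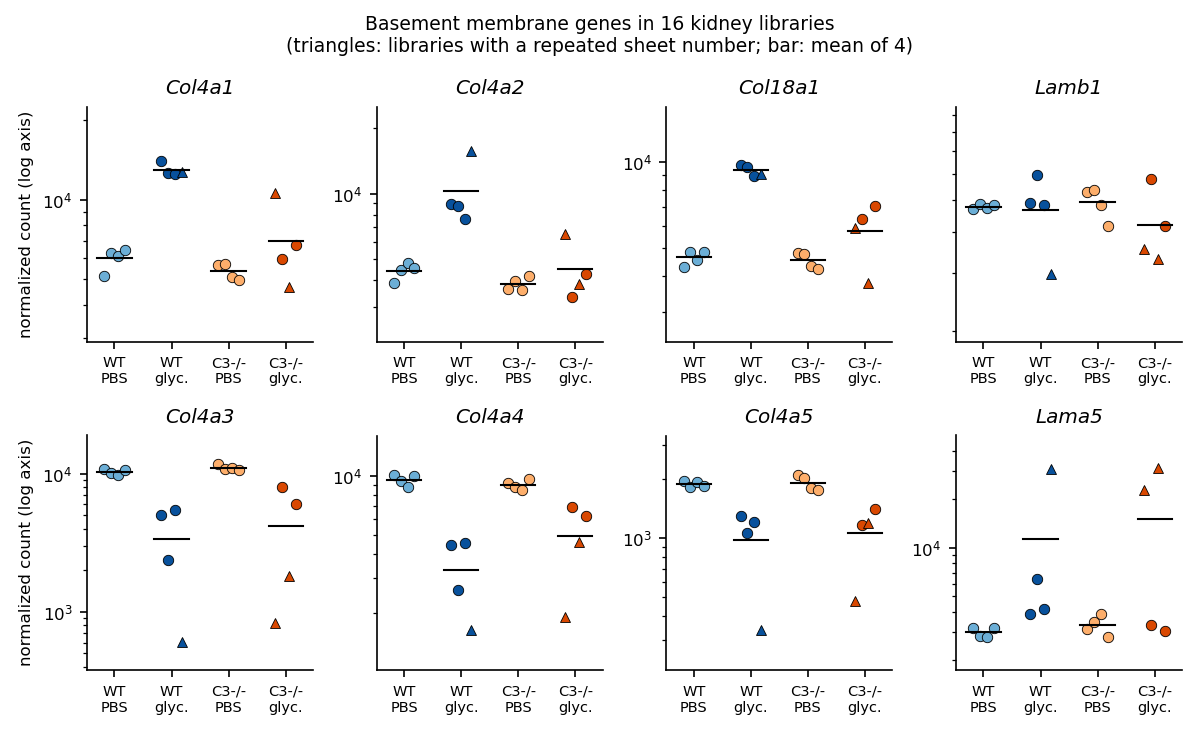
Normalized counts (vertical log axis) of 8 basement membrane genes in each of the 16 libraries, by group; circles are libraries of the first number series, triangles the 3 with repeated numbers, and bars the means of 4. Col4a1 lay between 12482 and 13986 in WT glycerol against 5159 to 6477 in WT PBS, Col4a3 was lowest in the triangles, and Lama5 reached 22750.1 to 31150.5 in the triangles and 6446 at most elsewhere.

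The type IV collagen chains moved in opposite directions by network. Col4a1 had 5159, 6296, 6152 and 6477 in WT PBS and 13986, 12602, 12482 and 12699.8 after glycerol, a rise of 1.11 ± 0.20 (adjusted p = 0.00109). Col4a2, transcribed away from the same start region, had 3889, 4472, 4771 and 4548 and 8940.4, 8779.5, 7641 and 15621 and rose by 1.16 ± 0.23 (adjusted p = 0.00189). Neither gene overlapped between the groups, and the rises were 1.12 and 0.94 within the first number series.

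The chains named for the glomerular network fell. Col4a3 had 10822, 10152, 9873 and 10629 in PBS and 5045, 2394, 5439.8 and 607 after glycerol, a log2 difference of -2.04 ± 0.68 (adjusted p = 0.0374). Its head-to-head neighbour Col4a4 had 10020.3, 9349, 8798 and 9935 and 4405, 2612, 4513 and 1629, a difference of -1.65 ± 0.36 (adjusted p = 0.00424), and the X-linked Col4a5 fell by 1.13 ± 0.38 (adjusted p = 0.0404). All 3 lay below the PBS range in each glycerol library, with replicate 4 the lowest, and within the first number series the falls were smaller but called: -1.36 (adjusted p = 2.36e-04), -1.35 (adjusted p = 1.78e-05) and -0.68 (adjusted p = 6.89e-05). With all libraries, any of 6 single omissions ended the call of Col4a3 and any of 10 that of Col4a5, replicate 4 among them (adjusted p up to 0.0989 and 0.0846). Of 7 podocyte markers none was called in this comparison (limma with all libraries; 1 at an unadjusted p below 0.05), and their summed level was 14378 to 16186 in WT PBS, 12073 to 16096 in the 5 glycerol libraries of the first series and 6205 to 8047 in the 3 with repeated numbers. The part of podocyte content in these falls was not tested.

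Multiplexins, collagens that carry an endostatin-like end and sit at the outer face of basement membranes, rose. Col18a1 had 4304, 4863, 4563 and 4864 in PBS and 9777, 9668, 8970.5 and 9106 after glycerol, narrow ranges that did not overlap, and rose by 1.01 ± 0.17 (adjusted p = 6.34e-04). Col15a1 rose by 1.28 ± 0.41 (adjusted p = 0.0307) with a wider range after glycerol, 1043 to 2602, and any of 6 single omissions ended its call. 

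The laminin, nidogen and perlecan genes, the other components of the basement membrane sheet, had no call with all libraries, and 5 of them were called within the first number series. Lamc1, the gamma chain shared by most laminins, differed by 0.23 ± 0.31 with all libraries and 0.63 (adjusted p = 6.58e-04) within the series. Lama5, the alpha chain of the mature glomerular laminin, had 3192, 2821, 2791 and 3166 in PBS and 3891, 6446, 4156 and 30651 after glycerol. Every glycerol library of Lama5 lay above every PBS library, with replicate 4 far above the other 3, and the difference was 1.33 ± 0.73 with all libraries and 0.66 (adjusted p = 0.00366) within the series. Nid1 differed by 0.06 ± 0.32 and 0.42 (adjusted p = 0.0458). Lama1 differed by -0.75 ± 0.42 and -1.05 (adjusted p = 0.0281), and Nid2 differed by -0.86 ± 0.40 and -0.40 (adjusted p = 0.0355). Lamb1 (-0.07 ± 0.21), Lamb2 (0.15 ± 0.24) and Hspg2, which encodes perlecan (0.23 ± 0.18), were called in neither fit.

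Of the crosslinking enzymes, Loxl2 rose by 0.98 ± 0.29 (adjusted p = 0.0239) from 269 to 493 to 459.8 to 971, a call that any of 5 single omissions ended. Loxl1 differed by 0.94 ± 0.44 (adjusted p = 0.137) and Lox by 0.75 ± 0.35 (adjusted p = 0.132), or 0.93 (adjusted p = 0.0144) within the first series. Among stromal cell genes Vim, which also rises in injured tubule cells, increased by 1.49 ± 0.29 (adjusted p = 0.00171) from 1212 to 1292 to 2559.7 to 5304. Pdgfrb differed by 0.96 ± 0.37 (adjusted p = 0.0651), or 0.65 (adjusted p = 0.0112) within the first series, Acta2 by 0.36 ± 0.29 (adjusted p = 0.381) and Pdgfra by -0.68 ± 0.30 (adjusted p = 0.108).

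**Figure D3:**
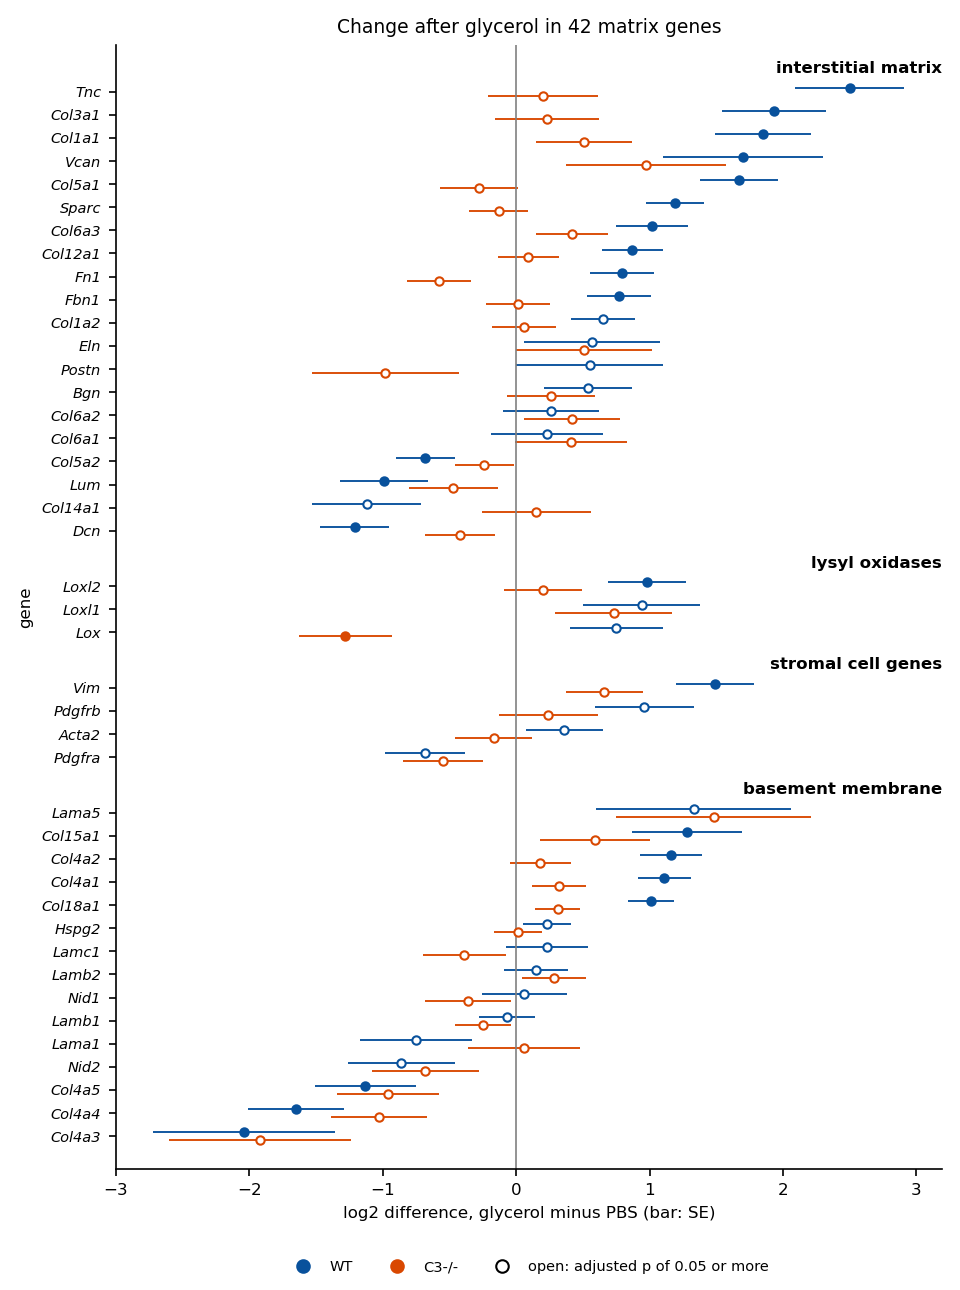
Log2 difference between glycerol and PBS (horizontal axis, bars are SE) for each of the 42 genes in WT (blue) and in libraries labelled C3-/- (orange), grouped by role; filled points passed an adjusted p below 0.05. Filled WT points run from -2.04 for Col4a3 to 2.50 for Tnc, and Lox, at -1.28, is the one filled point for C3-/-.

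In libraries labelled C3-/- almost none of these changes was called after glycerol. No member rose and 1 fell (2.38%), by limma with all libraries, where 3.68% of all genes tested rose and 1.96% fell. The share that fell was close to that of all genes. At an unadjusted p below 0.05, 1 member was higher and 5 lower, a threshold at which all genes were not counted. Medians were 0.12 for interstitial and 0.01 for basement membrane genes beside -0.06 over all genes. Within the first number series these medians were -0.15 and -0.05, the sign of 17 members changed, none of them called in either fit, and 4 members were called, 1 higher and 3 lower, where 23% of all genes were called. Col18a1 was the one that rose (0.56 (adjusted p = 8.33e-04)), and Col4a5 (-0.58 (adjusted p = 0.00214)), Acta2 (-0.58 (adjusted p = 0.0366)) and Lox (-0.97 (adjusted p = 0.0472)) fell.

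Col3a1 had 485, 817, 599.9 and 492 in C3-/- PBS and 1044, 711, 279 and 1078 after glycerol, overlapping ranges with a difference of 0.23 ± 0.39 (adjusted p = 0.708). Tnc had 159.9, 212, 253 and 121 and 566, 186, 123 and 138. Only glycerol replicate 1 exceeded the PBS range, and the difference was 0.20 ± 0.41 (adjusted p = 0.766), or -0.16 within the first series, which lacks that library. That same library was the highest of its group in 14 of 20 interstitial genes, among them Col1a1 at 833.5 beside 285 to 413 in the other 3.

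The single call was Lox, at 91.5, 95.2, 99.0 and 82.6 in C3-/- PBS and 47.6, 40.7, 18.8 and 52.9 after glycerol. All glycerol libraries lay below all PBS libraries, and it fell by 1.28 ± 0.35 (adjusted p = 0.0481), but leaving out any of 13 single libraries ended the call (adjusted p up to 0.119). The glomerular collagen IV chains also lay below the PBS range in every glycerol library without passing the test: Col4a3 had 11851, 10884, 10972 and 10627 and 835, 7996, 1808 and 6009, a difference of -1.92 ± 0.68 (adjusted p = 0.106). Replicates 1 and 3, the libraries with repeated numbers, were the lowest, and within the first series the difference was -0.68 (adjusted p = 0.0708). Differences of -1.03 ± 0.36 (adjusted p = 0.108) for Col4a4 and -0.96 ± 0.38 (adjusted p = 0.142) for Col4a5 accompanied it, and these were -0.45 (adjusted p = 0.0838) and -0.58 (adjusted p = 0.00214) within the series. Col4a1 differed by 0.32 ± 0.20 (adjusted p = 0.312) and Col4a2 by 0.18 ± 0.23 (adjusted p = 0.605), with overlapping ranges.

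**Figure D4:**
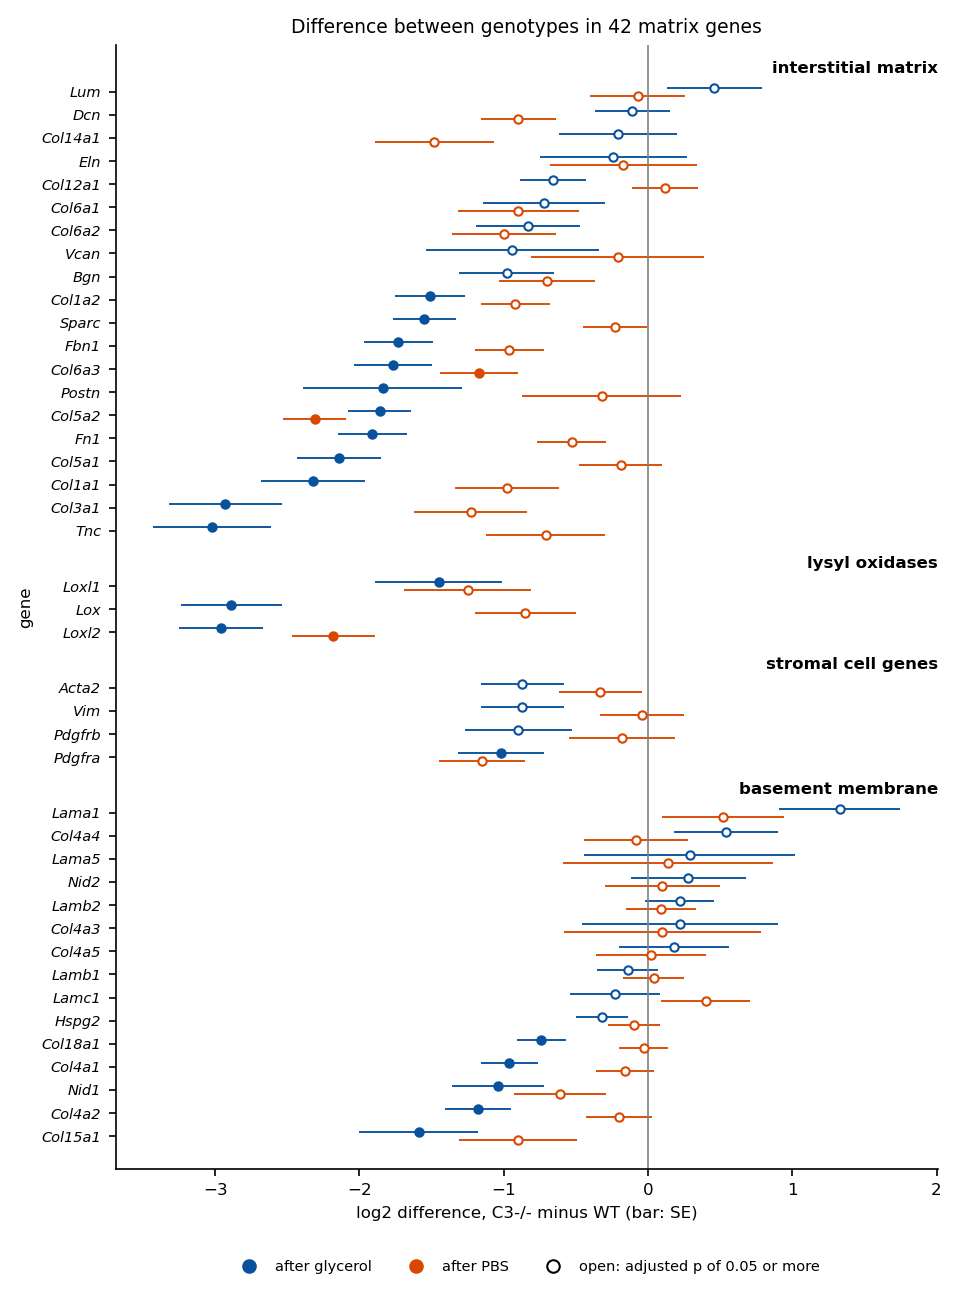
Log2 difference between C3-/- and WT libraries (horizontal axis, bars are SE) for each of the 42 genes after glycerol (blue) and after PBS (orange), grouped by role; filled points passed an adjusted p below 0.05. All 20 filled points after glycerol and all 3 after PBS (Col5a2, Col6a3 and Loxl2) lie below 0.

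After glycerol 6 of 10 interstitial collagens (Col1a1, Col1a2, Col3a1, Col5a1, Col5a2 and Col6a3), 5 adhesive glycoproteins (Fn1, Tnc, Postn, Sparc and Fbn1) and all 3 lysyl oxidases were lower in libraries labelled C3-/- than in WT. Of the 42 members 20 were lower (47.6%) and none higher (limma), where 4.85% of all genes tested were lower and 6.38% higher. At an unadjusted p below 0.05, 26 were lower and 1 higher, a threshold at which all genes were not counted. By role the lower genes were 11 of 20 interstitial, 5 of 15 basement membrane, 3 of 3 lysyl oxidases and 1 of 4 stromal. The medians were -1.53 for interstitial and -0.14 for basement membrane genes, beside 0.04 over all genes. Within the first number series 29 were lower and 3 higher, where 30.1% of all genes were called, and 19 of the 20 were among them, the exception being Postn.

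Tnc, at 1952, 2239.8, 1007 and 1780.2 in WT and 566, 186, 123 and 138 in C3-/- glycerol, showed the largest difference, -3.02 ± 0.41 (adjusted p = 2.47e-04). Loxl2 was nearly as far apart, at 971, 889.9, 627 and 459.8 and 112, 88.1, 57.0 and 116, a difference of -2.96 ± 0.29 (adjusted p = 1.43e-05). No library of one genotype reached the range of the other for either gene. Lox had 389, 401, 208 and 196 and 47.6, 40.7, 18.8 and 52.9 and differed by -2.89 ± 0.35 (adjusted p = 1.05e-04).

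Fibrillar collagens were lower as well. Col3a1 differed by -2.93 ± 0.39 (adjusted p = 2.27e-04), with a highest C3-/- value of 1078 below the lowest WT value of 3788. Col1a1 differed by -2.32 ± 0.36 (adjusted p = 8.3e-04), Col1a2 by -1.51 ± 0.24 (adjusted p = 9.22e-04), Col5a1 by -2.14 ± 0.29 (adjusted p = 2.1e-04) and Col5a2 by -1.86 ± 0.22 (adjusted p = 6.6e-05). For Col5a2 the C3-/- glycerol values were 226, 186, 132 and 157 and those in WT 864, 762, 508 and 456. Fn1 differed by -1.91 ± 0.24 (adjusted p = 1.47e-04), Sparc by -1.55 ± 0.22 (adjusted p = 3.81e-04), Fbn1 by -1.73 ± 0.24 (adjusted p = 3.46e-04) and Col6a3 by -1.77 ± 0.27 (adjusted p = 6.88e-04).

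The other 4 interstitial collagens did not pass with all libraries and were called lower within the first number series. Col6a1 differed by -0.72 ± 0.42 (adjusted p = 0.315) with all libraries and -0.95 (adjusted p = 0.0178) within the series, and Col6a2 by -0.83 ± 0.36 (adjusted p = 0.158) and -0.86 (adjusted p = 0.0242). Col12a1 differed by -0.66 ± 0.23 (adjusted p = 0.08) and -0.48 (adjusted p = 0.0459), and Col14a1 by -0.21 ± 0.41 (adjusted p = 0.801) and -0.75 (adjusted p = 0.0357). Among stromal genes the same held for Vim (-1.04 (adjusted p = 0.00602) within the series), Acta2 (-1.15 (adjusted p = 9.4e-04)) and Pdgfrb (-1.06 (adjusted p = 0.0048)).

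Interstitial genes without a call also included the proteoglycans: Dcn differed by -0.11 ± 0.26 (adjusted p = 0.834), Lum by 0.46 ± 0.33 (adjusted p = 0.428) and Vcan by -0.94 ± 0.60 (adjusted p = 0.364), while Bgn differed by -0.98 ± 0.33 (adjusted p = 0.0738) with all libraries and -1.20 (adjusted p = 0.004) within the series. Dcn, at 565, 371, 446 and 671 in C3-/- glycerol, overlapped the WT glycerol range of 334 to 734 widely. Basement membrane genes divided by kind. Col4a1, at 13986, 12602, 12482 and 12699.8 in WT and 10579, 5956, 4665 and 6726 in C3-/-, differed by -0.96 ± 0.20 (adjusted p = 0.00598), Col4a2 by -1.18 ± 0.23 (adjusted p = 0.00353), Col18a1 by -0.74 ± 0.17 (adjusted p = 0.0103), Col15a1 by -1.59 ± 0.41 (adjusted p = 0.0191) and Nid1 by -1.04 ± 0.32 (adjusted p = 0.0476).

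The glomerular chains did not pass, with 0.22 ± 0.68 (adjusted p = 0.885) for Col4a3, 0.54 ± 0.36 (adjusted p = 0.4) for Col4a4 and 0.18 ± 0.38 (adjusted p = 0.815) for Col4a5. Within the first number series Col4a3 and Col4a4 were higher in C3-/- glycerol libraries, by 0.78 (adjusted p = 0.0418) and 0.81 (adjusted p = 0.00686). Lama1, a laminin chain of tubular basement membrane, was 1.33 ± 0.42 (adjusted p = 0.0559) with all libraries and 1.55 (adjusted p = 0.0193) within the series, with values of 356, 111, 408 and 579 in WT and 491, 762, 1392 and 725 in C3-/-. Lama5 changed sign, from 0.29 ± 0.73 (adjusted p = 0.851) with all libraries to -0.56 (adjusted p = 0.0398) within the first series, where Hspg2 was also called lower, at -0.54 (adjusted p = 0.0451).

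Of the 20 calls 5 ended when some single library was left out: Postn, Col15a1, Nid1, Loxl1 and Pdgfra, with adjusted p values up to 0.141, 0.057, 0.147, 0.124 and 0.118. With number series and Y-linked transcripts both as terms in the fit, 19 of the 20 remained called. Among only the libraries with Y-linked transcripts (2 of them C3-/- glycerol, an alternative chosen after the data were seen), 15 of the 20 remained, and Tnc differed by -3.67 (adjusted p = 5e-04), Col3a1 by -3.26 (adjusted p = 0.0122) and Loxl2 by -3.10 (adjusted p = 0.00414).

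Without injury, 3 members were lower in libraries labelled C3-/- and none higher (limma), where 1.19% of all genes tested were lower and 1.04% higher. At an unadjusted p below 0.05, 16 were lower and none higher, a threshold at which all genes were not counted. Medians were -0.81 for interstitial genes, 0.02 for basement membrane genes and 0.02 for all genes tested. Within the first number series, which holds all PBS libraries, 18 were called, 17 lower and 1 higher, where 19.3% of all genes were called; the 17 comprised 11 interstitial, 2 basement membrane, 3 lysyl oxidase and 1 stromal gene, and Lamc1 was the higher one (0.40 (adjusted p = 0.0245)).

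Col5a2 had the clearest difference, with 863, 979, 1121 and 1077 in WT PBS and 204, 198, 188 and 221 in C3-/- PBS, or -2.31 ± 0.22 (adjusted p = 1.33e-05). Each genotype formed a tight group far from the other. Loxl2 had 269, 366, 493 and 341 and 55.9, 93.3, 82.4 and 88.2 and differed by -2.18 ± 0.29 (adjusted p = 5.13e-04), again without overlap. Col6a3 had 461, 537, 940.4 and 481 and 190.2, 315, 331 and 218 and differed by -1.17 ± 0.27 (adjusted p = 0.0336), a call that any of 6 single omissions ended (adjusted p up to 0.141).

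The split in Y-linked transcripts runs along the genotype in these groups, since 3 of the 4 C3-/- PBS libraries lacked them and all WT PBS libraries had them. In the 1 C3-/- PBS library with Y-linked transcripts, replicate 4, Col5a2 was 221 beside 188 to 204 in the other 3, and Loxl2 was 88.2 beside 55.9 to 93.3. With 1 such library, sex and genotype cannot be told apart in these groups. With both terms in the fit, Col5a2 differed by -2.47 (adjusted p = 2.87e-05), Loxl2 by -2.23 (adjusted p = 0.00111) and Col6a3 by -1.32 (adjusted p = 0.037). Restricted to libraries with Y-linked transcripts, which leaves that 1 library on the C3-/- side and assumes that it varies like the other groups, the differences were -2.18 (adjusted p = 0.053), -2.01 (adjusted p = 0.368) and -1.41 (adjusted p = 0.772), and none of the 3 passed.

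Beside these 3 genes, 15 members without a call were below the WT range in every C3-/- PBS library. How many of all genes tested did so was not counted, so the 15 are not set against a background. Among them were genes with large differences after glycerol. Col3a1, at 878, 1389, 2128 and 1384 in WT and 485, 817, 599.9 and 492 in C3-/-, differed by -1.23 ± 0.39 (adjusted p = 0.156). The same difference had an adjusted p of 0.0111 within the first number series. Col1a1 differed by -0.98 ± 0.36 (adjusted p = 0.252), Loxl1 by -1.25 ± 0.44 (adjusted p = 0.22) and Lox by -0.85 ± 0.35 (adjusted p = 0.354), with adjusted p values of 0.0163, 0.0127 and 0.0395 within the series. Col1a2, at 1194, 1547, 2094 and 1346 in WT and 648, 884, 963 and 737 in C3-/-, differed by -0.92 ± 0.24 (adjusted p = 0.0658), and Fbn1 by -0.96 ± 0.24 (adjusted p = 0.0542). Dcn differed by -0.90 ± 0.26 (adjusted p = 0.104), Col14a1 by -1.48 ± 0.41 (adjusted p = 0.085) and Pdgfra by -1.15 ± 0.30 (adjusted p = 0.064). Col6a2 was at 215, 298, 329 and 284 in WT and 111, 168, 143 and 138 in C3-/- (adjusted p = 0.224). The remaining 5 were Col6a1 (-0.90 ± 0.42), Bgn (-0.70 ± 0.33), Col15a1 (-0.90 ± 0.41), Nid1 (-0.61 ± 0.32) and Acta2 (-0.33 ± 0.29), and 14 of the 15 were called within the series, the exception being Acta2. In contrast Col5a1 (-0.19 ± 0.29), Col12a1 (0.12 ± 0.23), Sparc (-0.23 ± 0.22), Col4a1 (-0.16 ± 0.20) and Col18a1 (-0.03 ± 0.17) overlapped between the genotypes. The WT PBS libraries were not uniform either: replicate 3 was the highest of the 4 in 19 of the 20 interstitial genes and replicate 1 the lowest in 18, while for the 15 basement membrane genes replicate 3 was highest in 4 and replicate 1 lowest in 7. The part that this spread played in the genotype difference was not tested.

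The glycerol comparison and the PBS comparison of the genotypes use separate libraries, and the difference between the glycerol responses sets all 4 groups against one another. No member passed that test (limma), where 0.222% of all genes were called higher and 0.216% lower. At an unadjusted p below 0.05, 12 members were lower and 2 higher, a threshold at which all genes were not counted. The nearest to the threshold was Col5a1 at -1.95 ± 0.40 (adjusted p = 0.0501), followed by Sparc at -1.32 ± 0.31 (adjusted p = 0.0805), Lox at -2.03 ± 0.50 (adjusted p = 0.0967), Fn1 at -1.37 ± 0.34 (adjusted p = 0.103) and Tnc at -2.31 ± 0.58 (adjusted p = 0.105). For Col5a2 and Loxl2, already lower after PBS, the values were 0.45 ± 0.31 (adjusted p = 0.727) and -0.78 ± 0.42 (adjusted p = 0.579). Calls in one genotype and not in the other are therefore not shown to differ with all libraries.

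Within the first number series 12 members passed the test of the difference, 11 lower and 1 higher, where 10.3% of all genes did. Tnc (-2.63 (adjusted p = 0.00453)), Col5a1 (-2.05 (adjusted p = 0.00927)), Lox (-1.90 (adjusted p = 0.0185)), Fn1 (-1.37 (adjusted p = 0.036)), Sparc (-1.26 (adjusted p = 0.00766)), Col4a2 (-0.96 (adjusted p = 0.00418)) and Col4a1 (-0.88 (adjusted p = 0.00421)) were among those lower, and Col4a4 (0.90 (adjusted p = 0.0333)) was higher. This comparison holds 2 C3-/- glycerol libraries.

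The 3 libraries with repeated numbers differed from the other 13 in many basement membrane genes, at a share like that of all genes. With the number series as a term beside the groups, 11 of 15 basement membrane genes were called (4 higher, 7 lower) and 7 of 20 interstitial genes (5 higher, 2 lower), against the 67.2% of all genes given above; the difference between these counts was not tested. Lama5 was at 30651 in WT glycerol replicate 4 and at 22750.1 and 31150.5 in C3-/- glycerol replicates 1 and 3, against 2787 to 6446 in the other 13, a term of 2.91 ± 0.17 (adjusted p = 2.2e-09). Lamb2, the beta chain that pairs with it in the glomerulus, was also above all 13, at 2946 to 3295 against 1529 to 2038. Lamb1 (2983 to 3542 against 4167 to 5958), Nid1 (546 to 733 against 815 to 2127) and Col4a3 (607 to 1808 against 2394 to 11851) were below all 13.

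In the interstitial list Eln alone lay above all 13, at 381 to 1209 against 174 to 292. All 3 libraries are glycerol libraries, so the number series cannot be told apart from a difference among glycerol-treated kidneys. Col14a1 (1.43 ± 0.22 (adjusted p = 3.82e-05)), Col6a1 (1.34 ± 0.27 (adjusted p = 4.3e-04)) and Col6a2 (0.98 ± 0.27 (adjusted p = 0.00496)) had higher terms although their ranges overlapped. Col3a1 (-0.57 ± 0.39 (adjusted p = 0.21)), Tnc (0.46 ± 0.42 (adjusted p = 0.342)) and Col4a1 (0.07 ± 0.19 (adjusted p = 0.76)) were not called for the term.

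Other genes of the pathway are given by list, and each count stands against the shares of all genes given above, 12.5% up and 13.3% down in WT and 3.68% and 1.96% in C3-/- after glycerol, and 4.85% lower between the genotypes after glycerol. Of 26 collagen processing genes tested 7 rose (26.9%) and 2 fell in WT glycerol, and between the genotypes after glycerol 6 were lower and none higher. Serpinh1, the collagen chaperone HSP47, rose by 1.25 ± 0.19 (adjusted p = 2.77e-04) in WT and differed by -1.62 ± 0.19 (adjusted p = 5.63e-05) in C3-/- glycerol. Fkbp10, a prolyl isomerase for collagen, rose by 1.86 ± 0.33 (adjusted p = 0.00101) and differed by -1.76 ± 0.33 (adjusted p = 0.00305). P3h1, a prolyl 3-hydroxylase, rose by 0.90 ± 0.19 (adjusted p = 0.00326) in WT and by 0.80 ± 0.19 (adjusted p = 0.0229) in C3-/-, the only gene of this list called in the latter.

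Of 25 matrix proteases tested 9 rose (36%), 2 fell and 14 were not called in WT, with a median of 0.43. In C3-/- 2 rose and 1 fell, and 9 were lower in C3-/- than in WT after glycerol. Mmp10, a stromelysin, was listed at 0 in all 8 PBS libraries and at 16.9 to 372.4 in WT and 2.61 to 105.9 in C3-/- glycerol, so it was tested only because of the glycerol libraries and no fold is given. Adamts4, which cleaves proteoglycans, rose by 3.6 ± 0.59 (adjusted p = 5.64e-04) in WT, and Adam12 was the furthest below WT after glycerol, at -3.14 ± 0.38 (adjusted p = 1.02e-04). Mmp2, the gelatinase of resting stroma, differed by -1.03 ± 0.37 (adjusted p = 0.0558) in WT. Timp1, an inhibitor induced in injured tissue, was low after PBS (2.67 to 6.51 in WT and 1.97 to 12 in C3-/-) and rose by 8.38 ± 0.73 (adjusted p = 3.74e-06) in WT and 4.11 ± 0.73 (adjusted p = 0.00407) in C3-/-, differed by -4.17 ± 0.73 (adjusted p = 0.00182) in C3-/- glycerol, and differed between the responses by -4.26 ± 1.03 (adjusted p = 0.0873). Timp3, which is held in the matrix, fell by 1.62 ± 0.43 (adjusted p = 0.0119) in WT.

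Of 22 matrix receptors 9 rose and 1 fell in WT, none was called in C3-/- (limma; 5 at an unadjusted p below 0.05), and 8 were lower between genotypes after glycerol. Itga3, a laminin-binding integrin chain, rose by 1.74 ± 0.19 (adjusted p = 1.92e-05) and differed by -0.98 ± 0.19 (adjusted p = 0.00314); Cd44, the hyaluronan receptor, differed by -2.51 ± 0.45 (adjusted p = 0.00201). In a list of 31 further interstitial matrix genes 7 rose and 7 fell in WT. Spp1 (osteopontin) rose by 4.78 ± 0.47 (adjusted p = 9.79e-06) and Tgfbi by 2.18 ± 0.24 (adjusted p = 2.75e-05), while the small proteoglycans Ogn and Prelp fell by 2.54 ± 0.22 (adjusted p = 3.64e-06) and 1.77 ± 0.25 (adjusted p = 2.01e-04), like Dcn and Lum. After PBS 4 of the 31 were lower in C3-/- libraries (12.9%, where 1.19% of all genes tested were lower): Prelp (-1.25 ± 0.25), Ogn (-0.99 ± 0.22), Tgfbi (-1.07 ± 0.24) and Ltbp1 (-0.91 ± 0.21). Ogn was called for the difference between responses, at 1.66 ± 0.31 (adjusted p = 0.0292).

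Further basement membrane genes, 18 tested, showed 3 rises (16.7%) and 5 falls (27.8%) in WT, 1 rise and 2 falls in C3-/-, where the rises in either genotype were near the share of all genes, and none between the genotypes after glycerol (limma; 1 at an unadjusted p below 0.05). Tinagl1 rose by 2.06 ± 0.43 (adjusted p = 0.00296) in WT, and Tinag, of tubular basement membrane, fell by 1.28 ± 0.23 (adjusted p = 9.43e-04) in WT and 1.09 ± 0.23 (adjusted p = 0.0107) in C3-/-. Of 18 genes of TGF-beta and PDGF signalling 5 rose and 2 fell in WT and 6 were lower in C3-/- glycerol. Tgfb1, a ligand of the pathway, rose by 1.38 ± 0.26 (adjusted p = 0.00143) and differed by -1.16 ± 0.26 (adjusted p = 0.00899). Ccn2 (connective tissue growth factor) differed in WT by 0.28 ± 0.26 (adjusted p = 0.441) but was lower in C3-/- libraries after PBS (-1.18 ± 0.26 (adjusted p = 0.023)) and after glycerol (-1.70 ± 0.26 (adjusted p = 6.1e-04)). Smad3 was called for the difference between responses, at -1.02 ± 0.18 (adjusted p = 0.0214).

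RNA of cell type markers is set beside these values, and it does not separate the number of cells from RNA per cell. Of 12 fibroblast and pericyte markers that are not members, none rose and 3 fell in WT glycerol (Gsn, Rgs5 and Clec3b), with summed levels of 6819 to 7875 in WT PBS, 4810 to 5469 in WT glycerol, 5955 to 6861 in C3-/- PBS and 5426 to 8348 in C3-/- glycerol. After glycerol 1 of the 12 was lower in C3-/- libraries and 1 higher, and after PBS none was called (limma; 2 at an unadjusted p below 0.05), with a median difference of -0.24. Rgs5 and Gsn made up 73.5% of the summed level in WT PBS, and over the 12 genes the log2 difference in WT glycerol was above 0 for 6 and below 0 for 6, with a median of 0.01. Of 11 endothelial markers 3 fell in WT glycerol and none was called between the genotypes after glycerol (limma; 2 at an unadjusted p below 0.05). Of 9 macrophage markers 3 rose and 1 fell in WT glycerol, of 7 proximal tubule markers 6 fell, and of 4 thick ascending limb markers 2 fell. Over all genes tested 12.5% rose and 13.3% fell in WT glycerol, so the macrophage marker that fell (11.1%) was near that share. Between the genotypes after glycerol 4.85% of all genes were lower and 6.38% higher, beside 8.33% each of the fibroblast and pericyte markers. Smooth muscle markers, which share vessels with Acta2 and Eln, summed to 4831 to 6459 in PBS libraries and reached 13933 in WT glycerol replicate 4 and 10670.5 in C3-/- glycerol replicate 1, which were also the highest of their groups for Eln and Acta2. Urothelial markers summed to between 35.2 and 936 over the 16 libraries, and no gene of the adipocyte list was analysed. The part of cell composition in the members' values was not tested.

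The authors' deposited tables cover 3 of the comparisons and hold the same direction for every member called here in those. They rest on the same libraries, and none sets the genotypes against each other after PBS. For WT glycerol against PBS the authors' deposited table calls 19 members higher and 7 lower, among 29% of its genes in either direction; the additional 4 are Col1a2, Col14a1, Lama5 and Pdgfrb. In the authors' deposited table for the genotypes after glycerol 20 members are lower and 1 higher, Lama1, where 16.8% of its genes pass. For C3-/- glycerol against PBS the authors' deposited table calls Lox lower and Lama5 higher, where 15.9% pass.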

How the data were processed

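RNA of 16 mouse kidney section lysates was sequenced. Reads were processed by the authors with STAR 2.7.1 on GRCm38, DESeq2 and R 3.6.1, per the submitters' processing notes. How reads were counted, and whether by strand, is not given in the sources used, so genes that overlap, such as Col4a1 and Col4a2 at their starts, may share reads. The authors deposited a matrix of normalized counts (a signal, scaled by DESeq2) for 20525 genes, and 3 tables of their own log2 fold changes with p-values. At most 2.11% of a library's values were whole multiples (within 0.01) of its lowest value, so whole reads were not recovered, depth is unknown, no counting interval can be given, and no count model was run.

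Genes with a value of at least 10 in at least 4 libraries (18035) were tested as log2(value + 1) with limma 3.58.1 in R 4.3.3, with 1 coefficient per group, all 16 libraries and a mean-variance trend. Tests were two-sided, Benjamini-Hochberg adjusted over all genes tested in a comparison, and called at an adjusted p below 0.05; ± is the SE for a log2 difference and the SD for a level. The log2(value + 1) scale understates changes of low genes. Counts at an unadjusted p below 0.05 have no share of all genes beside them and are not comparable with the shares of calls. The comparisons were glycerol against PBS in each genotype, the genotypes after each treatment, and the difference between the responses. The fit was also run on simulated data that gave all groups of a gene the same spread. In many members here the glycerol groups spread more than the PBS groups, a case that the simulation does not cover.

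The members, the 7 pathway lists and the 11 marker lists were chosen with earlier results of these data known, and no list was tested as a set. All members may be named; from other lists up to 4 tested genes of smallest p per comparison, and Timp1, Ccn2, Tgfb1, Serpinh1, Mmp2 and Pecam1 anywhere. Some results that this rule covers are not reported here. Alternatives were a pseudocount of 8, no filter, quantile normalization, array weights, the number series as a term or the first series alone, Y-linked transcripts as a term, a replicate block and leaving out each library; a fit of only the libraries with Y-linked transcripts was added after seeing the data. Genes were placed by GENCODE M21 (GRCm38), which held 20515 of the 20525.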

Additional observations from a re-analysis of the deposited data

Results flagged for a closer look

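Each member was checked for a library that stood apart within its group of 4, meaning that its gap to the nearest other library exceeded Dixon's 95% critical share of the group's range. Among 168 groups 9 met this rule, and chance alone flags about 1 in 20 groups. In WT glycerol, Col5a1 was 437.4 in replicate 3 beside 838 to 934 in the others, and Col4a1 was 13985.5 in replicate 1 beside 12482 to 12699.8. Replicate 4 of that group, a library with a repeated number, had Eln at 1208.9 beside 194 to 262 and Col4a5 at 338.9 beside 1060.2 to 1294.

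C3-/- glycerol replicate 1, also of the repeated numbers, had Bgn at 5889.1 beside 1868 to 2184 and Acta2, the smooth muscle actin of vessels and activated stroma, at 2704.1 beside 939.5 to 1056. Among C3-/- PBS libraries, Col15a1 was 282.0 in replicate 1 beside 437.5 to 467. Replicate 4, the only one of that group with Y-linked transcripts, had Lamc1 at 1523.0 beside 1932.5 to 1969.7 and Vim at 957.7 beside 1316 to 1353.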

How the results depend on the processing

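Members called in WT glycerol against PBS numbered 22, and 13 to 25 when single libraries were left out. All 22 remained called with a pseudocount of 8, quantile normalization, array weights and the number series as a term or its first series alone; without the filter Vcan was lost. The single call in C3-/- glycerol against PBS, Lox, became 0 calls with a pseudocount of 8 and without the filter. Array weights gave 12 calls and the first number series 4, Lox among them in both. With number series and Y-linked transcripts as terms Lox was lost and 2 others were called higher. These were Col18a1 (0.51, adjusted p = 0.0207) and Vim (0.80, adjusted p = 0.0423). With the number series alone as a term there was 1 call, which was not Lox. Leaving out single libraries gave 0 to 4 calls.

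The 20 calls between genotypes after glycerol became 32 with array weights, 31 with the number series as a term, 32 within the first series and 31 with number series and Y-linked transcripts as terms, and 15 to 25 when single libraries were left out. After PBS the 3 calls became 5 with quantile normalization, 22 with array weights, 12 with the number series as a term, 18 within the first series, 6 with both terms, 0 with only libraries with Y-linked transcripts (which leaves 1 C3-/- PBS library), and 2 to 7 when single libraries were left out. For the difference between responses, 0 became 1 with a pseudocount of 8 or quantile normalization, 20 with array weights, 6 with the number series as a term, 12 within the first series, 6 with both terms, and 0 to 3 when single libraries were left out. The first series holds all PBS libraries, so the differences between genotypes after PBS were the same in both fits (Col3a1 at -1.23 in each). Only the spread, which is estimated over all groups, and the p-values moved there. The cause of the other shifts was not tested.

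Leaving out single libraries moved the median log2 change of interstitial genes between 0.57 and 0.88 in WT and between -0.13 and 0.18 in C3-/-, and that of basement membrane genes between 0.02 and 0.21 in WT and between -0.15 and 0.10 in C3-/-. Among values called in either fit, sign changed for Col14a1 in C3-/- glycerol against PBS, at -0.56 with array weights, and for Lama5 between genotypes after glycerol, at -0.56 within the first series. Within that series the sign also changed for members called in neither fit: 17 in C3-/- glycerol against PBS (Tnc, Eln, Bgn and Col6a1 among them), 5 in WT glycerol against PBS, 1 between genotypes after glycerol (Lum) and 6 for the difference between responses. The interstitial median in C3-/- went from 0.12 to -0.15. Deviations of same-numbered libraries of different groups had a correlation over 0.1 in 3 of 16 pairs (range -0.69 to 0.38). Pairs with different numbers were not compared, so these values do not settle whether the numbers pair libraries. A fit with the replicate number as a block kept 17 of the 22 WT calls, 0 of the 1 in C3-/-, 17 of the 20 after glycerol and 2 of the 3 after PBS.

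Depth is unknown, sex and genotype run together in the libraries labelled C3-/-, and the repeated numbers occur only among glycerol libraries, with 3 WT and 2 C3-/- glycerol libraries left without them. A difference that did not pass is not shown to be absent.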
